A study of Homo sapiens with 16 samples.

Results

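The tricarboxylic acid (TCA) cycle enzymes and the anaplerotic enzymes that feed the cycle were followed in DU145, a cell line from human prostate cancer, given lactate, the inhibitor I-BET762 or both. The set holds 30 genes chosen by symbol, and each matched 1 Ensembl identifier among the 64792 of the deposited count table. Of these genes, 29 passed the filter on low counts and were tested among 14690 genes. The exception was PCK2, which had 0 counts in every library. Poly(A) RNA was sequenced from 4 libraries with lactate and I-BET762 together, 4 with lactate alone, 4 with I-BET762 alone and 4 control libraries. I-BET762 occupies the bromodomains with which BET proteins read acetylated histones. The labels give neither dose nor duration for either treatment, and no vehicle for the control. All groups are the same cell line by title, although the cell line field of the samples given both treatments carries other line numbers, and the titles were followed. The labels call the replicates independent without saying what was separate, so p-values measure the spread between these libraries.

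In the cycle, acetyl-CoA is joined to oxaloacetate to give citrate, which passes through isocitrate, oxoglutarate, succinyl-CoA, succinate, fumarate and malate back to oxaloacetate. Anaplerotic enzymes refill it from pyruvate (pyruvate carboxylase) or from amino acids (glutamate dehydrogenase and the transaminases). Malic enzymes link malate with pyruvate. Normal prostate epithelium is known for secreting citrate instead of oxidising it, and prostate cancer cells for returning to citrate oxidation. Lactate can reach the cycle once it has been oxidised to pyruvate.

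Total counts were 14358751 to 14641934 with both treatments, 10711859 to 17173584 with lactate, 13741178 to 16847884 with I-BET762 and 13300345 to 15867437 in control. Levels below are CPM values on library sizes scaled by edgeR's TMM factors. Epithelial markers were high, with KRT8 and KRT18 reaching 21332 and 16579 counts in a library. The luminal prostate gene KLK3 had at most 1 count, while the fibroblast gene DCN had 0 and the leukocyte gene PTPRC at most 1. HEXIM1 is induced by BET inhibition and served to check the labels. The library labelled control replicate 2 held 135 CPM of it, against 70.01 to 77.4 CPM in the other control libraries. The one labelled I-BET762 replicate 2 held 89.6 CPM, against 113 to 149 CPM in the other libraries with I-BET762 alone. This goes against both labels, which were kept, and directions drawn from these groups rest on them. Lactate replicate 1 had the lowest total count, and it stood apart for many of the 29 enzymes. Its levels ran from -1.33 to 1.30 on the log2 scale relative to the control mean, while the other 3 lactate libraries ran from -0.47 to 1.01. The map of levels in each library shows both features.

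**Figure D1:**
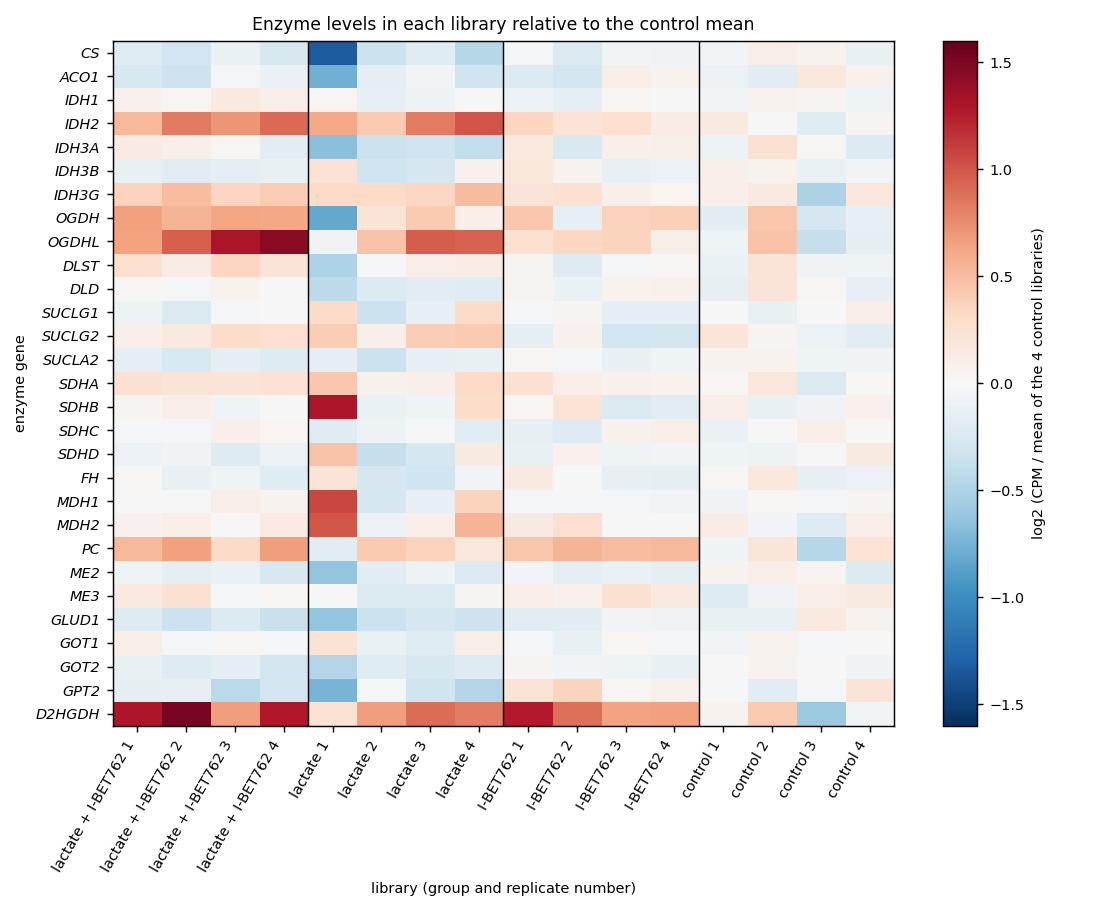
Level of each of the 29 tested enzymes (rows) in each of the 16 libraries (columns), as log2 of CPM over the mean of the 4 control libraries; red is above and blue below that mean. IDH2 is redder in all 8 libraries given lactate than in any library without it, and is faintly red with I-BET762 alone. OGDHL and D2HGDH are reddest on average with both treatments, though single libraries overlap other groups. For D2HGDH, I-BET762 replicate 1 is at 1.27 and replicate 3 of both treatments at 0.67. Lactate replicate 1 differs from the other lactate libraries, with SDHB, MDH1 and MDH2 high and CS low.

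The members kept very different levels in control cells when set per kilobase of merged exon length. GOT2, the mitochondrial aspartate transaminase, was highest at 99.3 ± 3.25 CPM per kb (SD, n = 4), followed by the malate dehydrogenases MDH2 at 82.7 ± 8.65 and MDH1 at 68.2 ± 2.25 CPM per kb. The ranges of MDH2 and MDH1 did not overlap, with lowest and highest libraries of 71.6 and 89.9 CPM per kb for MDH2 and 65.6 and 70.5 CPM per kb for MDH1. GLUD1 (55.4 ± 5.25), IDH1 (52.7 ± 2.31) and FH (49.9 ± 4.86 CPM per kb) came next and overlapped in range. Enzymes that link pyruvate with the cycle lay near the bottom of the order: ME3 at 6.18 ± 0.68, PC at 4.61 ± 0.94 and ME2 at 3.81 ± 0.37 CPM per kb. D2HGDH followed at 2.28 ± 0.63 and OGDHL was last at 0.89 ± 0.23 CPM per kb, with 48 to 202 counts in the 16 libraries. The order depends on the merged length, which takes in every annotated exon and is 16243 bp for ME2. Before division by length ME2 had 61.8 CPM in control, above SUCLG2 at 40.1 and IDH2 at 35.2 CPM. PC and ME3 had 27.3 and 23.7 CPM. For PCK2, the mitochondrial phosphoenolpyruvate carboxykinase, 0 counts allow a level of up to 0.175 to 0.280 CPM depending on the library, counting error only. Since the annotation release used for counting is not given in the sources used here, this was not read as absence of the transcript.

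Of the 7 enzymes that changed with lactate against control, 4 have a single RefSeq promoter window whose RefSeq start lies within 100 bases of the GENCODE gene start. These 4 are shown for that reason: CS, GLUD1 and GOT2, which fell, and D2HGDH, which rose. IDH2, IDH3G and IDH3A did not meet the rule, although they changed too. Each run is the 250 bases before the RefSeq start on GRCh38.p14, from 5′ to 3′ on the gene's strand. The CS window lies at chr12:56300331-56300580 on the minus strand, that of GLUD1 at chr10:87094844-87095093 on the minus strand, that of GOT2 at chr16:58734317-58734566 on the minus strand and that of D2HGDH at chr2:241734380-241734629 on the plus strand. Capitals mark motifs matched exactly on either strand. The first is the GC box, spelled GGGCGG and known as a binding site of Sp family factors. The second is the box read by the factor NF-Y in many promoters, spelled CCAAT. The third, bound by MYC and related factors, is the E-box, whose letters are CACGTG on both strands. The last is ACGTG, a spelling of the core of the hypoxia response element, which every E-box also contains. Other spellings of this core were not searched or marked.
CS: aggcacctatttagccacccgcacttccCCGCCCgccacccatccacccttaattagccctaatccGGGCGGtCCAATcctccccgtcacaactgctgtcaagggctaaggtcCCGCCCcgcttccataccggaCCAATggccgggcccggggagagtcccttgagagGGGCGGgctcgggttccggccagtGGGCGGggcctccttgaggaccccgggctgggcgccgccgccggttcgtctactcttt
GLUD1: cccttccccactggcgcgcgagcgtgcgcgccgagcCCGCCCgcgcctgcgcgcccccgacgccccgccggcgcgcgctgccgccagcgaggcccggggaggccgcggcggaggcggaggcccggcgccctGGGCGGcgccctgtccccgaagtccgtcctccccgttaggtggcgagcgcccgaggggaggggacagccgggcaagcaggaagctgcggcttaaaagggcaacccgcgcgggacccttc
GOT2: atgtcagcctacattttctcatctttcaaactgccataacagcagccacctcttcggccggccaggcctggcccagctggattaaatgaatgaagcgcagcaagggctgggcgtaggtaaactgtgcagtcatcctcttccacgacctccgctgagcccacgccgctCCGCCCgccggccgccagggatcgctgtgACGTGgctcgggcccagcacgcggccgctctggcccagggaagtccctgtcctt
D2HGDH: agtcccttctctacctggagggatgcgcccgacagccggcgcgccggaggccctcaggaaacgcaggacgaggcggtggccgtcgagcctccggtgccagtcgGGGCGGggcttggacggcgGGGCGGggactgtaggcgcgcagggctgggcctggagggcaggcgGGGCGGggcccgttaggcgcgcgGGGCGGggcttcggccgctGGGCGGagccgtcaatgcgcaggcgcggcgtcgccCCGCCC
GC boxes were present in all 4 windows, with 5 in CS, 2 in GLUD1, 1 in GOT2 and 6 in D2HGDH. A CCAAT box occurred only in CS, where there were 2, and ACGTG only in GOT2, where there was 1. None of them held an E-box. Among the 35 windows of the 27 members that have one, 57.1% held a GC box and 42.9% a CCAAT box, against 42.6% and 32.0% of all 35116 windows. ACGTG was in 20.0% of the member windows and 18.5% of all windows, and the E-box in 8.57% and 6.34%. The members' windows had a median GC content of 66.0%, against 58.0% over all windows.

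Lactate against control asked what lactate alone did to the expression of these enzymes. Their transcripts moved in both directions: IDH2, IDH3G and D2HGDH rose, and CS, IDH3A, GLUD1 and GOT2 fell, each by less than 1 on the log2 scale. These 7 of 29 members (24.1%) compare with 23.7% of all genes tested, of which 13.6% were higher and 10.1% lower, so the share was near the background. The median log2 fold change was -0.05 over the members and 0.03 over all genes. Libraries of the groups did not overlap for 8 of the members, 2 above control and 6 below, where 20% of all genes did not overlap (10.9% above and 9.12% below).

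The isocitrate step, where isocitrate is oxidised to oxoglutarate, held 3 of the 7 changes. IDH2, the mitochondrial NADP-dependent enzyme (ENSG00000182054, chromosome 15, 90083045 to 90102504, minus strand, GRCh38), had 53.7, 47.2, 61.9 and 71.0 CPM in lactate replicates 1 to 4, against 38.8, 35.1, 30.9 and 36.2 CPM in control replicates 1 to 4. Every lactate library lay above every control library (log2 fold change 0.73, SE 0.13, adjusted p = 0.00144). IDH3A, the catalytic subunit of the NAD-dependent enzyme of the cycle (ENSG00000166411, chromosome 15, 78131498 to 78171949, plus strand), had 66.2, 83.4, 84.5 and 80.6 CPM with lactate, against 99.5, 125, 107 and 90.5 CPM in control. All 4 lactate libraries were lower (log2 fold change -0.42, SE 0.12, adjusted p = 0.0215), and exons of the antisense genes CIB2 or ACSBG1 cover up to 38.2% of its exon length. The regulatory subunit IDH3G (ENSG00000067829, chromosome X, 153785766 to 153794523, minus strand) had 38.6, 38.9, 39.4 and 44.4 CPM with lactate, against 33.1, 34.4, 21.9 and 35.5 CPM in control. It rose without overlap (log2 fold change 0.37, SE 0.13, adjusted p = 0.0468), and the antisense gene SSR4 overlaps 10.2% of its exons. The other regulatory subunit, IDH3B, and the cytosolic IDH1 had log2 fold changes of -0.05 and -0.05 and did not pass. The catalytic subunit IDH3A and the regulatory subunit IDH3G thus had opposite signs in the counts as deposited, whereas with a correction for GC content they stood at -0.30 and -0.03.

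CS, citrate synthase, which makes citrate at the entry of the cycle (ENSG00000062485, chromosome 12, 56271699 to 56300392, minus strand), had 99.2, 197, 217 and 183 CPM with lactate, against 242, 268, 259 and 229.9 CPM in control. Lactate replicate 1 was lowest by far, and the other 3 lactate libraries also lay below control (log2 fold change -0.52, SE 0.17, adjusted p = 0.033). Without lactate replicate 1 the CS log2 fold change was -0.33 (adjusted p = 0.0136). ACO1, the cytosolic aconitase that also acts as an iron sensor, had a CPM of 173 ± 35.7 with lactate and 212 ± 22.9 in control (SD, n = 4 each) and did not pass (adjusted p = 0.136).

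Both glutamate enzymes that fell are mitochondrial. GLUD1, glutamate dehydrogenase (ENSG00000148672, chromosome 10, 87050486 to 87094866, minus strand), had 127, 153, 161 and 155 CPM with lactate, against 179.8, 179.9, 218 and 203 CPM in control. No library overlapped (log2 fold change -0.39, SE 0.10, adjusted p = 0.0114). Reads of GLUD1 can be shared with its near-identical copy GLUD2, and the antisense gene SHLD2 overlaps 13.2% of its exons. GOT2, the transaminase that links glutamate with aspartate (ENSG00000125166, chromosome 16, 58707131 to 58734357, minus strand), had 269, 327, 313 and 325 CPM with lactate, against 375, 389.5, 371 and 359.9 CPM in control (log2 fold change -0.28, SE 0.09, adjusted p = 0.0306). Cytosolic GOT1 had a log2 fold change near 0, at 0.02 (adjusted p = 0.898). GPT2, the mitochondrial alanine transaminase (ENSG00000166123, chromosome 16, 46884378 to 46931297, plus strand), had 73.0, 119.7, 98.1 and 88.5 CPM with lactate, against 119.8, 107, 121 and 141 CPM in control. It did not pass (log2 fold change -0.36, SE 0.14, adjusted p = 0.0603), and lactate replicate 2 lay within the control range. All 4 enzymes of the glutamate group were tested, and 0 rose while 2 fell.

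D2HGDH, which oxidises D-2-hydroxyglutarate to oxoglutarate (ENSG00000180902, chromosome 2, 241734579 to 241768816, plus strand), had 14.1, 19.2, 22.3 and 21.1 CPM with lactate, against 12.5, 16.0, 7.95 and 11.6 CPM in control. The groups overlapped through lactate replicate 1 and control replicate 2, and the gene passed (log2 fold change 0.68, SE 0.22, adjusted p = 0.0346). With a correction for GC content its log2 fold change was 0.0027 and the call ended (adjusted p = 0.991). It has the highest transcript GC content of the 30 members, at 65.2%. An antisense gene overlaps 11.5% of its exons.

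No component of the oxoglutarate dehydrogenase complex passed with lactate: the log2 fold changes against control were 0.04 for OGDH, 0.65 for its paralogue OGDHL, -0.06 for DLST and -0.25 for DLD (adjusted p = 0.902, 0.0528, 0.767 and 0.0642). From succinyl-CoA onwards no member passed either. SUCLG2, the GTP-forming beta subunit of succinyl-CoA ligase (ENSG00000172340, chromosome 3, 67360460 to 67654614, minus strand), had 52.9, 42.5, 52.8 and 53.6 CPM with lactate, against 45.9, 41.5, 37.6 and 35.5 CPM in control (log2 fold change 0.33, SE 0.12, adjusted p = 0.0515). Lactate replicate 2 lay inside the control range and the other 3 lactate libraries above it. The alpha subunit SUCLG1 and the ATP-forming beta subunit SUCLA2 had log2 fold changes of 0.06 and -0.19 (adjusted p = 0.771 and 0.121). MDH2, the mitochondrial malate dehydrogenase (ENSG00000146701, chromosome 7, 76048051 to 76067508, plus strand), had 599, 281, 325 and 439 CPM with lactate, against 327, 292, 261 and 325 CPM in control (log2 fold change 0.45, SE 0.17, adjusted p = 0.0668). MDH2 was highest in lactate replicate 1, and so were MDH1, at 711 CPM, and SDHB, the iron-sulphur subunit of succinate dehydrogenase, at 215 CPM. The log2 fold changes of MDH2, MDH1 and SDHB were 0.45, 0.35 and 0.47 with all libraries, and 0.21, 0.01 and 0.05 without lactate replicate 1. The 3 other succinate dehydrogenase subunits SDHA, SDHC and SDHD had log2 fold changes of 0.23, -0.12 and 0.03, and fumarase (FH) -0.09. Of the enzymes that link pyruvate with the cycle, PC, ME2 and ME3 had 0.22, -0.27 and -0.10, and none passed.

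The number of members that changed with lactate depended on single libraries. It was 4 without control replicate 1, 2 or 4 or without lactate replicate 4, 2 without control replicate 3 and 13 without lactate replicate 2. Over all genes, 2102 to 3006 passed in the fits that gave 4 members. Without control replicate 3, 1839 of 14876 genes passed, and without lactate replicate 2, 4950 of 14870. With all libraries 3486 of 14690 genes passed. IDH2 and GLUD1 passed without each of the 8 libraries in turn. CS did not pass without any one of the control libraries or without lactate replicate 4 (adjusted p = 0.0559 to 0.0790), and IDH3A did not pass without control replicate 2 or 3 (adjusted p = 0.0714 and 0.0540). GOT2 did not pass without any one of the control libraries (0.0578 to 0.0683), IDH3G without control replicate 1, 2 or 3 or lactate replicate 3 or 4 (0.0503 to 0.136) and D2HGDH without control replicate 1, 3 or 4 or lactate replicate 3 or 4 (0.0639 to 0.116). When control replicate 2 and I-BET762 replicate 2 were both left out, 3 members rose and 1 fell. Of 14897 genes, 1586 rose and 993 fell in that fit. The balance of directions moved too: 8 rose and 5 fell without lactate replicate 2, and 7 rose and 3 fell when the test was limited to genes averaging 5 CPM or more. Over all genes, 2660 rose and 2290 fell without lactate replicate 2. With the limit of 5 CPM, 1768 of 10670 genes rose and 982 fell. With a correction for GC content IDH2, GLUD1 and GOT2 of the 7 still passed, and 1973 of 14690 genes did. With the lactate and control groups fitted alone the count of members was 1, and in DESeq2 it was 11. The counts of all genes in these fits were 889 of 14052 and 4225 of 14690.

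**Figure D2:**
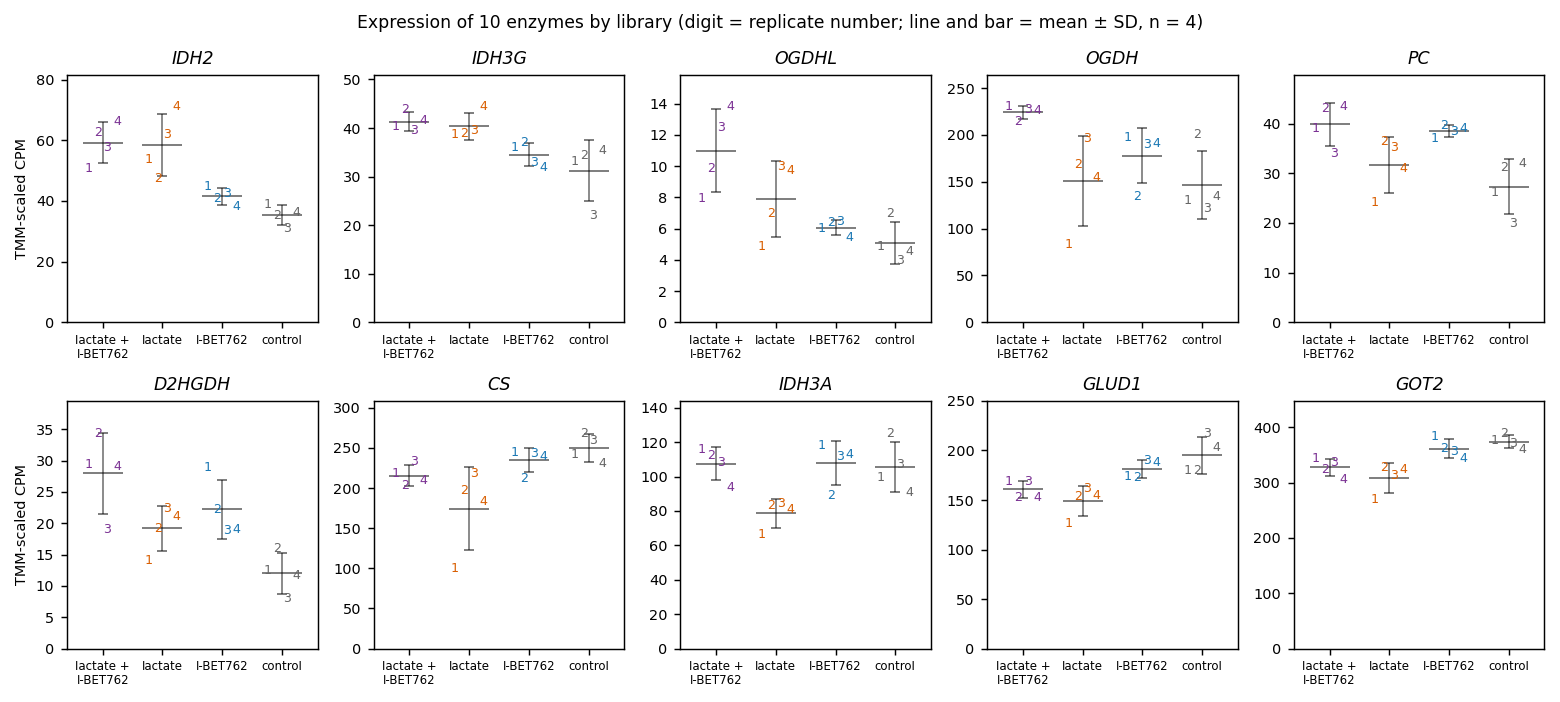
TMM-scaled CPM (vertical axes, from 0) of the 10 enzymes that changed in at least one comparison, by group; each digit is a library and gives its replicate number, and lines with bars are the mean ± SD of 4 libraries. IDH2 stands above control in all 8 libraries given lactate, and CS is lowest in lactate replicate 1, at 99.2 CPM.

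Lactate and I-BET762 together were next set against control. Here 6 enzymes rose and 0 fell: IDH2, IDH3G, OGDH, OGDHL, PC and D2HGDH. The members' share of 20.7% equals the 20.7% of all genes tested, of which 13% were higher and 7.72% lower. The median log2 fold change was 0.02 over the members and -0.01 over all genes. This comparison uses the same control libraries as the lactate comparison, so values are given side by side and no overlap was tested. Libraries did not overlap for 7 members above and 4 below control, where 31.2% of all genes did not overlap (16.5% above and 14.8% below).

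IDH2 had 50.5, 62.5, 57.5 and 66.1 CPM in replicates 1 to 4 with both treatments, all above the control libraries (log2 fold change 0.75, SE 0.13, adjusted p = 0.000991). IDH3G had 40.4, 43.9, 39.5 and 41.5 CPM with both treatments, also all above control (log2 fold change 0.40, SE 0.13, adjusted p = 0.034). CS and IDH3A, which had fallen with lactate alone, had 218, 203, 233 and 209 CPM and 116, 112, 108 and 93.9 CPM with both treatments. Neither passed, with log2 fold changes against control of -0.21 and 0.03 (adjusted p = 0.397 and 0.906), and for each the groups overlapped.

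The oxoglutarate dehydrogenase complex converts oxoglutarate to succinyl-CoA. Its first component is OGDH (ENSG00000105953, chromosome 7, 44606572 to 44709066, plus strand), which had 230.0, 214, 227 and 226 CPM with both treatments, against 130.4, 200.1, 122 and 134 CPM in control. All 4 libraries with both treatments lay above control (log2 fold change 0.61, SE 0.21, adjusted p = 0.0467), and the library labelled control replicate 2 was the highest control library. OGDHL, a paralogue of OGDH (ENSG00000197444, chromosome 10, 49734643 to 49762379, minus strand), had 7.91, 9.83, 12.5 and 13.8 CPM with both treatments, against 4.83, 6.98, 3.94 and 4.54 CPM in control (log2 fold change 1.12, SE 0.23, adjusted p = 0.00338). It was the least expressed member tested and again did not overlap. DLST, the succinyl-transferring component (ENSG00000119689, chromosome 14, 74881891 to 74903745, plus strand), had 170.0, 154, 180.2 and 164 CPM with both treatments, against 132, 165, 136 and 136 CPM in control (log2 fold change 0.23, SE 0.12, adjusted p = 0.197). DLD, the component shared with pyruvate dehydrogenase (ENSG00000091140, chromosome 7, 107890970 to 107931730, plus strand), had 137, 132, 141 and 135 CPM with both treatments, against 124, 156, 138 and 124 CPM in control (log2 fold change 0.01, SE 0.09, adjusted p = 0.963). Of the 4 components, the OGDH and OGDHL transcripts rose and DLST and DLD did not pass.

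PC, pyruvate carboxylase (ENSG00000173599, chromosome 11, 66848233 to 66958376, minus strand), had 39.1, 43.0, 33.9 and 43.4 CPM with both treatments, against 26.1, 31.3, 20.0 and 31.9 CPM in control. It rose without overlap (log2 fold change 0.54, SE 0.15, adjusted p = 0.0177), and the antisense gene LRFN4 overlaps 10.5% of its exons. With a correction for GC content PC stood at 0.06 and did not pass (adjusted p = 0.780). The other tested enzymes that link pyruvate with the cycle, the malic enzymes ME2 and ME3, had log2 fold changes of -0.14 and 0.11 and did not pass. D2HGDH had 29.4, 34.4, 19.1 and 29.1 CPM with both treatments and showed, in the counts as deposited, the largest fold change of the members tested over the comparisons made (log2 fold change 1.22, SE 0.22, adjusted p = 0.00135). With the correction it was 0.42 (adjusted p = 0.0779), and OGDHL, at 0.82, was larger. All 4 of these libraries lay above control.

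Among the glutamate enzymes none passed with both treatments. GLUD1 had 169, 153, 168 and 153 CPM and lay below control in every library, with an adjusted p just above 0.05 (log2 fold change -0.28, SE 0.10, adjusted p = 0.0523). GOT2 had 343, 324, 336 and 306 CPM and also lay below control in every library (log2 fold change -0.19, SE 0.09, adjusted p = 0.131). GPT2 had 110.0, 112, 90.8 and 99.0 CPM and overlapped control (log2 fold change -0.25, SE 0.14, adjusted p = 0.214).

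IDH2, OGDHL and D2HGDH passed without each of the 8 libraries in turn. The number of members that rose was 3 without control replicate 3 or without replicate 2 or 4 of both treatments. Over all genes, 1166 of 14876, 1329 of 14880 and 1219 of 14866 rose in these fits, against 1911 of 14690 with all libraries. OGDH did not pass without control replicate 1, 3 or 4 or any one library with both treatments (adjusted p = 0.0811 to 0.149). IDH3G did not pass without control replicate 1 or 3 or any one library with both treatments (0.0508 to 0.101), and PC did not pass without control replicate 3 or without replicate 2 or 4 of both treatments (0.0562 to 0.0686). With a correction for GC content 2 members passed, IDH2 and OGDHL, and 1614 of 14690 genes did.

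**Figure D3:**
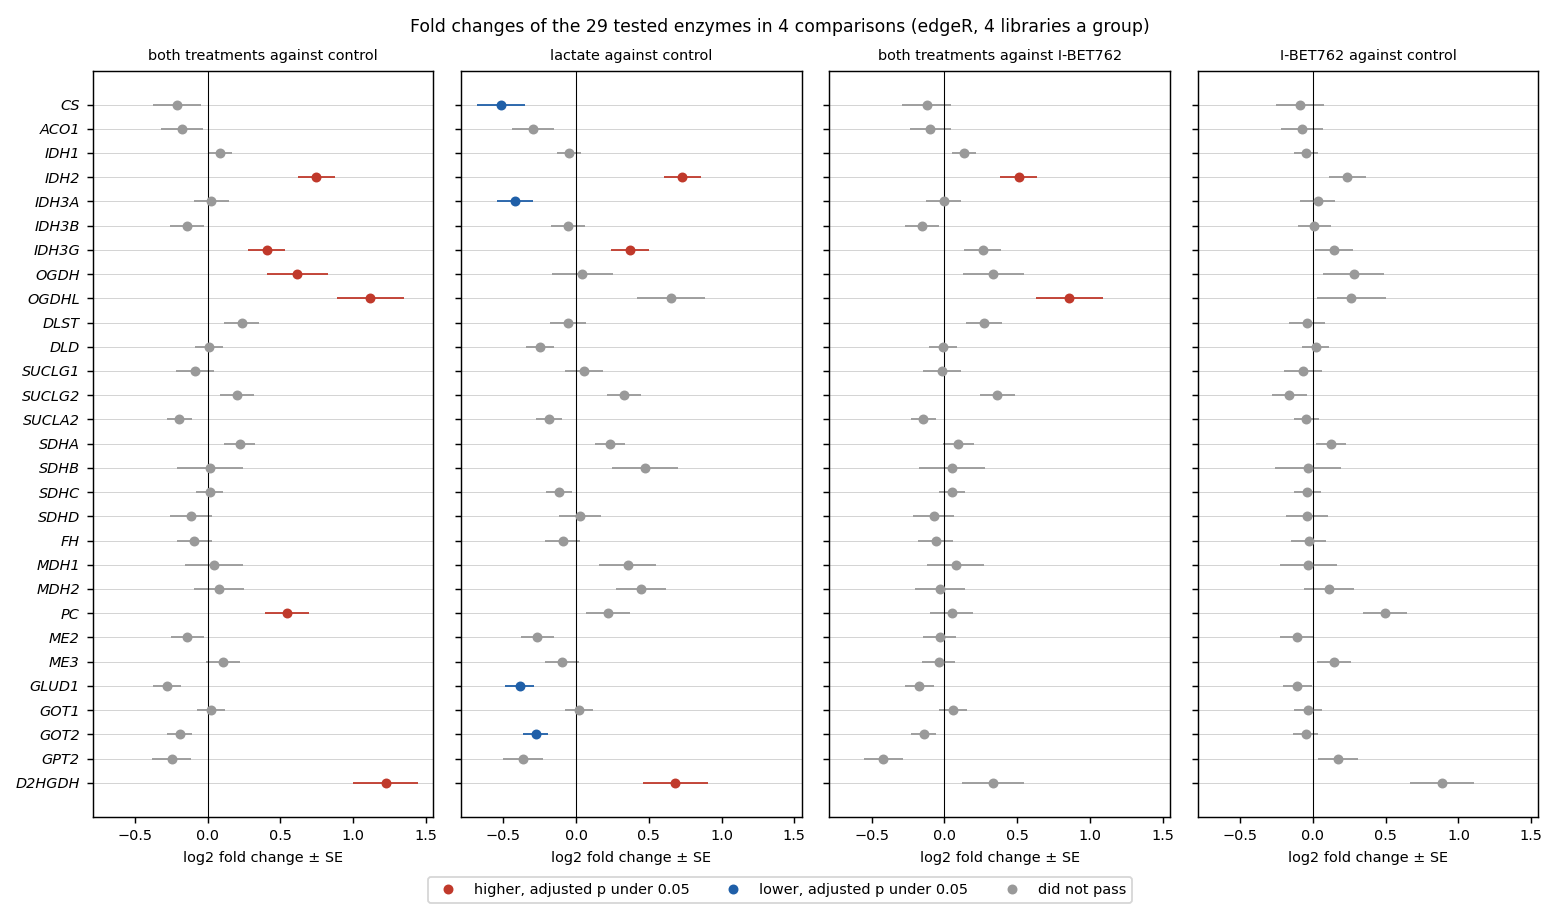
Log2 fold change ± SE (horizontal axes) of the 29 tested enzymes in 4 comparisons of 4 libraries against 4; red and blue mark adjusted p under 0.05, grey marks the rest. IDH2 is red in the 3 comparisons whose groups differ in lactate, and I-BET762 against control has no coloured point.

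Both treatments against I-BET762 alone asked what lactate did in the presence of the inhibitor. IDH2 and OGDHL rose and no member fell, which is 2 of 29 members (6.9%) against 4.9% of all genes tested, 3.34% higher and 1.57% lower. IDH2 had 50.5 to 66.1 CPM with both treatments, against 44.6, 40.8, 42.5 and 38.1 CPM in I-BET762 replicates 1 to 4, without overlap (log2 fold change 0.51, SE 0.13, adjusted p = 0.0273). OGDHL had 7.91 to 13.8 CPM with both treatments, against 6.02, 6.38, 6.47 and 5.41 CPM with I-BET762, likewise without overlap (log2 fold change 0.86, SE 0.23, adjusted p = 0.0391). GPT2 had 90.8 to 112 CPM with both treatments, against 141, 157, 124 and 128 CPM with I-BET762, and did not pass although every library was lower (log2 fold change -0.42, SE 0.14, adjusted p = 0.0861). SUCLG2 had 42.6, 44.8, 49.1 and 48.2 CPM with both treatments, against 36.4, 42.2, 32.4 and 32.6 CPM with I-BET762 (log2 fold change 0.36, SE 0.12, adjusted p = 0.0866). Its libraries did not overlap, but it did not pass. Over the members 7 lay above and 4 below without overlap, where 22.5% of all genes did not overlap (11.2% above and 11.3% below). The call for IDH2 was lost without I-BET762 replicate 2, 3 or 4 or without replicate 2, 3 or 4 of both treatments (adjusted p = 0.0593 to 0.111), and that for OGDHL without any one I-BET762 library or without replicate 2, 3 or 4 of both (0.0663 to 0.153). The count of members was 1 without I-BET762 replicate 1 and 0 without replicate 2, 3 or 4 of either group. Over all genes, 488 passed without I-BET762 replicate 1 and 285 to 435 in the fits that gave 0 members.

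I-BET762 alone against control changed 0 of the 29 members in edgeR, where 0.442% of all genes tested changed. At an unadjusted p under 0.05 there were 2 members and 1682 genes, and DESeq2 called 2 members and 542 genes. D2HGDH had 28.9, 22.2, 18.8 and 19.0 CPM with I-BET762, all above the control libraries (log2 fold change 0.89, SE 0.22, adjusted p = 0.0686). PC had 37.0, 39.7, 38.4 and 39.0 CPM with I-BET762, likewise all above control (log2 fold change 0.50, SE 0.15, adjusted p = 0.123). Both are GC-rich, D2HGDH at 65.2% and PC at 61.1%, and no gene passed here with a correction for GC content. Over the alternatives run, the log2 fold change was 0.30 to 1.07 for D2HGDH and 0.17 to 0.62 for PC. D2HGDH and PC were the only members whose libraries did not overlap, where 10.8% of all genes did not overlap (7.73% above and 3.04% below). IDH2 and SUCLG2, next by p, had log2 fold changes of 0.24 and -0.16 (adjusted p = 0.554 and 0.719), and both overlapped control. For the cycle's entry and the NAD-dependent isocitrate step, CS had 244, 212, 243 and 239.8 CPM, IDH3A 118, 89.0, 112 and 113 CPM and IDH3G 36.0, 36.9, 33.0 and 32.0 CPM with I-BET762. OGDH had 198, 134, 189.6 and 191 CPM, so that the library labelled I-BET762 replicate 2 lay near the control libraries 1, 3 and 4. Of the glutamate enzymes, GLUD1 had 173, 173, 189.8 and 188 CPM and GOT2 384, 362, 356 and 344 CPM with I-BET762, and both overlapped control. The count of members stayed at 0 when replicate 2 of both groups was left out, with 10 of 14897 genes passing. With all libraries HEXIM1, the gene used to check the labels, did not pass in edgeR either (log2 fold change 0.38, SE 0.19, adjusted p = 0.486). A count of 0 members here therefore cannot show that the inhibitor left these enzymes unchanged.

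Both treatments against lactate alone asked what the inhibitor did in the presence of lactate. No member changed in edgeR (0% of all genes tested), in limma-voom or in DESeq2, with 7 members and 2294 genes at an unadjusted p under 0.05. IDH3A, whose per-library levels are given above, had the smallest p and was higher with both treatments in every library (log2 fold change 0.45, SE 0.12, adjusted p = 0.222). OGDH had 214 to 230.0 CPM with both treatments, against 82.9, 168, 197 and 155 CPM with lactate, without overlap (log2 fold change 0.57, SE 0.21, adjusted p = 0.274). DLD had 132 to 141 CPM with both treatments, against 102, 117, 119 and 118 CPM with lactate, again without overlap (log2 fold change 0.26, SE 0.09, adjusted p = 0.274). DLST had 154 to 180.2 CPM with both treatments, against 101, 139, 153 and 154 CPM with lactate (log2 fold change 0.29, SE 0.12, adjusted p = 0.296). D2HGDH overlapped (log2 fold change 0.54, SE 0.22, adjusted p = 0.283). OGDHL had 4.88, 6.94, 9.96 and 9.75 CPM and PC 24.1, 36.5, 35.2 and 30.9 CPM with lactate, and both overlapped the libraries with both treatments. The median log2 fold change over the members was 0.11, against -0.0007 over all genes. Without lactate replicate 1 these medians were 0.04 and 0.01. Libraries did not overlap for 5 members, all above lactate, where 7.6% of all genes did not overlap (3.82% above and 3.78% below). HEXIM1 had 115 to 157 CPM with both treatments, against 69.6 to 86.0 CPM with lactate, without overlap. It did not pass in edgeR (log2 fold change 0.81), so a count of 0 members here cannot show that they were unchanged. Among the comparisons of groups, HEXIM1 passed only for both treatments against control (log2 fold change 0.59).

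The interaction, which tests whether the effect of lactate differed with and without I-BET762, passed for 0 members and 0% of all genes tested in edgeR, with 1 member and 894 genes at an unadjusted p under 0.05. Limma-voom and DESeq2 called no member either. IDH3A had the smallest p, with an effect of lactate of -0.01 with the inhibitor and -0.42 without it (difference 0.42, SE 0.17, adjusted p = 0.7). MDH2, with 317, 323, 303 and 330.1 CPM with both treatments and 332, 362, 303 and 303 CPM with I-BET762, had a difference of -0.48 (SE 0.24). DLST, at 146, 123, 139 and 144 CPM with I-BET762, had a difference of 0.33 (SE 0.17), and DLD, at 139.5, 126, 141 and 142 CPM with I-BET762, one of 0.24 (SE 0.13). The effects of lactate on CS, IDH3A, IDH3G, GLUD1, GOT2 and D2HGDH passed without the inhibitor and not with it, and for none of them was this difference shown. Over all comparisons, 10 members passed in at least one and 19 in none.

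Ratios within a library compare isozymes or alternative subunits without any scaling between libraries. SUCLG2 and SUCLA2 encode the GTP-forming and ATP-forming beta subunits of succinyl-CoA ligase. Their log2 ratio was -0.08 ± 0.10 with both treatments, 0.04 ± 0.06 with lactate, -0.59 ± 0.15 with I-BET762 and -0.48 ± 0.11 in control (SD, n = 4 each). All 8 libraries given lactate lay above all 8 libraries without it, with a difference of 0.52 for lactate against control and 0.52 for both treatments against I-BET762. The ratio of mitochondrial IDH2 to cytosolic IDH1 was -2.16 ± 0.18 with both treatments, -2.06 ± 0.23 with lactate, -2.54 ± 0.14 with I-BET762 and -2.82 ± 0.19 in control. It too did not overlap between lactate and control (difference 0.77), between both treatments and I-BET762 (0.37) or between both treatments and control (0.66). The ratio of mitochondrial GOT2 to cytosolic GOT1 was lower in the same 3 comparisons, with differences of -0.29, -0.20 and -0.21, and lactate replicate 1 was the lowest library at 0.64. For each of these the exact two-sided permutation test gave p = 0.02857, the smallest that 4 against 4 libraries allow, and adjusted over the 25 tests of 5 ratios it was 0.0794. No ratio passed, which at this smallest p would have needed 15 of the 25 tests to reach it, against the 9 that did. MDH2 to MDH1 and ME2 to ME3 overlapped in all 5 comparisons of groups.

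**Figure D4:**
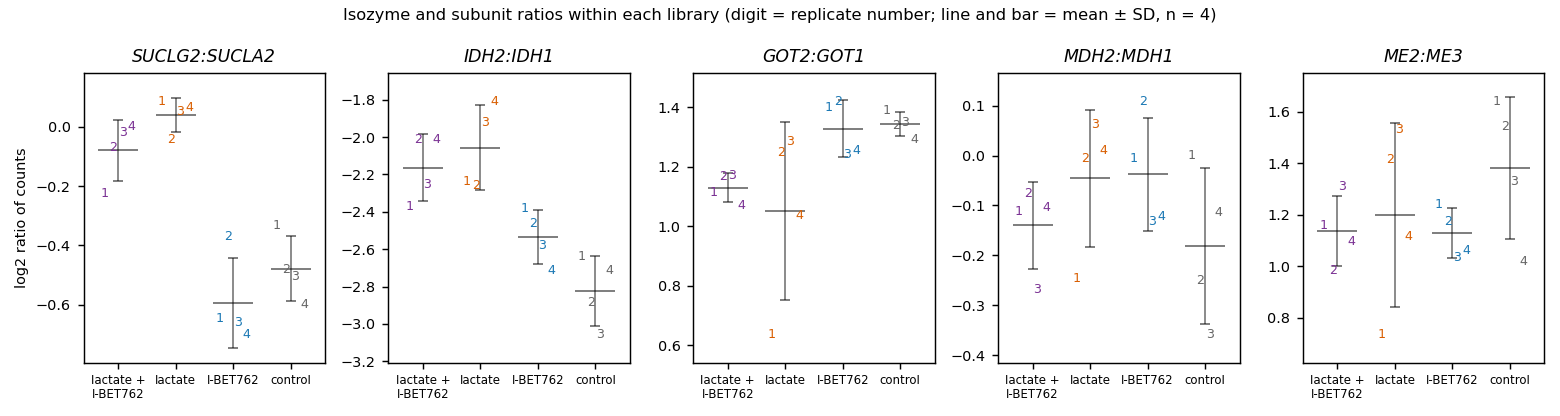
Log2 ratio of the CPM of 2 isozymes or subunits within each library (vertical axes, each with its own range), by group; digits are replicate numbers and lines with bars are the mean ± SD of 4 libraries. SUCLG2:SUCLA2 and IDH2:IDH1 are higher in the groups given lactate than in those without it, and GOT2:GOT1 is lower.

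GC content moved with the fold changes of the members and of all genes. Across the 29 members, Spearman's rho of the log2 fold change on transcript GC content was 0.53 for both treatments against control, 0.40 for lactate against control and 0.73 for I-BET762 against control. Over the 14598 tested genes with a GC value it was 0.50, 0.43 and 0.54. These are correlations across genes, which are not independent replicates. Their part in each result was not tested beyond a correction that removes each library's smooth trend on GC content. In single libraries, levels relative to each gene's mean had a rho on GC content of -0.55 to -0.30 in control. In the libraries given either treatment or both, this rho was -0.18 to 0.43. The correction can therefore also take out a treatment effect that follows GC content, and such an effect cannot be told apart from the trend. With this correction IDH2 rose by 0.58 with lactate (adjusted p = 0.00395) and by 0.59 with both treatments (adjusted p = 0.00313) against control. OGDHL rose by 0.82 with both treatments against control (adjusted p = 0.0204). GLUD1 fell by 0.29 with lactate (adjusted p = 0.0441). The calls for D2HGDH and PC ended, with the values given above. Others that ended were OGDH, at 0.44 with both treatments (adjusted p = 0.183), and CS, at -0.47, and IDH3A, at -0.30, with lactate (adjusted p = 0.0619 and 0.106). IDH3G turned to -0.03 with lactate and -0.07 with both treatments. Newly past the threshold were SUCLG2, at 41.2% GC, with lactate (log2 fold change 0.48, adjusted p = 0.0188), and GPT2, which was lower with lactate (-0.49, adjusted p = 0.0225) and with both treatments against I-BET762 (-0.48, adjusted p = 0.0394).

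**Figure D5:**
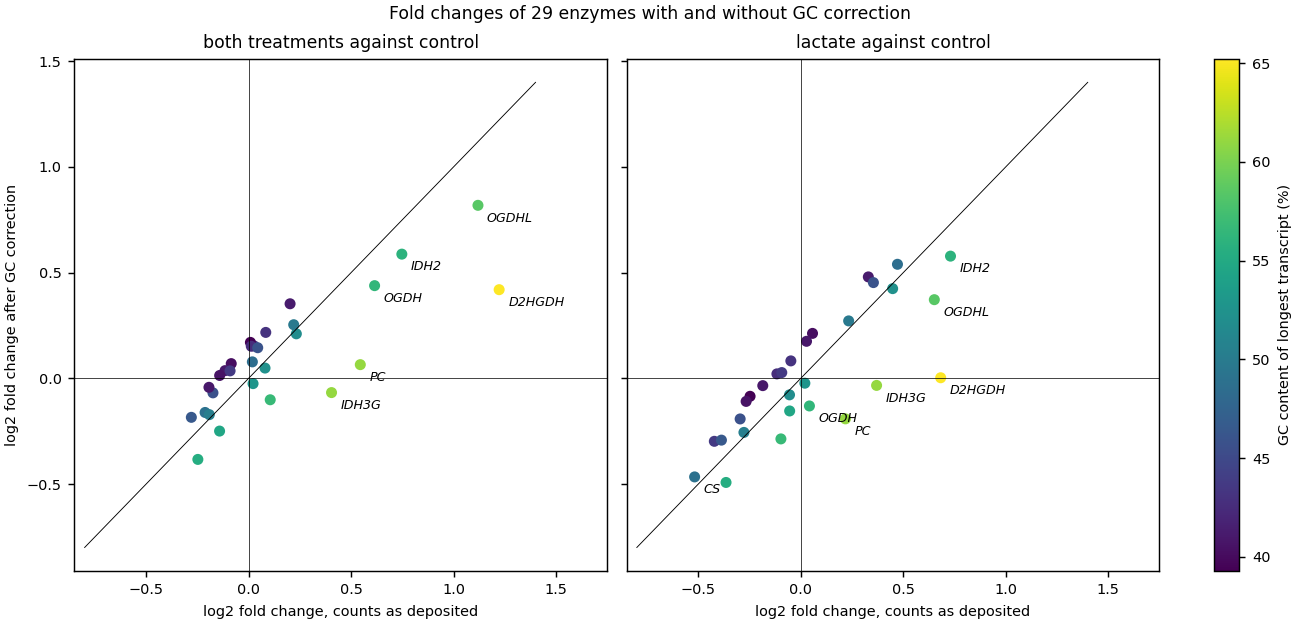
Log2 fold change of the 29 enzymes from the counts as deposited (horizontal axis) and after each library's trend on GC content was removed (vertical axis), for both treatments and for lactate against control; colour is the GC content of the longest transcript and the diagonal marks equal values. The GC-rich genes D2HGDH, PC and IDH3G lie far below the diagonal, while IDH2 stays near 0.58 or 0.59.

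Genes around the cycle were counted in 4 further lists: mitochondrial carriers, glutamine and aspartate entry, lipoylation and succinate dehydrogenase assembly, and other cycle-related enzymes. Of their 33 genes 29 were tested. Left-out libraries and the correction for GC content were followed for single members and not for single genes of these lists. With lactate against control 5 rose and 4 fell (31% of the 29, against 23.7% of all genes tested, 13.6% higher and 10.1% lower). With both treatments against control 6 rose and 2 fell (27.6%, against 20.7% of all genes, 13% higher and 7.72% lower). With both against I-BET762 2 rose and 1 fell (10.3%, against 4.9%), and with I-BET762 alone 1 rose (3.45%, against 0.442%). The median log2 fold change with lactate was 0.43 for the carriers, -0.29 for glutamine and aspartate entry, 0.37 for lipoylation and assembly and -0.08 for the other enzymes, against 0.03 over all genes. Among the carriers, SLC25A1, which exports citrate from mitochondria, had 186 ± 28.2 CPM with lactate and 122 ± 22.2 CPM in control (SD, n = 4 each, log2 fold change 0.61, adjusted p = 0.00903). SLC25A11, the oxoglutarate carrier, had 52.3 ± 8.85 CPM with lactate and 29.6 ± 7.98 CPM in control (log2 fold change 0.82, adjusted p = 0.00422). Both also rose with both treatments against I-BET762 (SLC25A1 0.54, SLC25A11 0.64) and against control (0.99 and 0.86). The glutamate carrier SLC25A22 rose with I-BET762 alone (log2 fold change 1.14, adjusted p = 0.0479) and with both treatments against control (0.82). For I-BET762 against control no gene passed with total counts alone, with limma-voom or with a correction for GC content. The SLC25A22 call with I-BET762 alone therefore ended in each. The dicarboxylate carrier SLC25A10 rose with both treatments against control (1.33, adjusted p = 0.0213).

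In the glutamine and aspartate list, SLC1A5, a plasma membrane glutamine transporter, fell in the same 3 comparisons. Its log2 fold changes were -0.53 with lactate and -0.84 with both treatments against control, and -0.95 for both treatments against I-BET762. ASS1, which uses aspartate to make argininosuccinate, rose with lactate (0.77) and with both treatments (0.57) against control. The assembly factors of succinate dehydrogenase SDHAF1 and SDHAF4 rose with lactate (0.95 and 0.75), while 0 of the 4 subunits passed. Lactate replicate 1 was the highest library for both, at 26.8 CPM of SDHAF1 and 19.5 CPM of SDHAF4. SDHAF1 had 11.3, 11.4 and 16.4 CPM in lactate replicates 2 to 4, against 6.44 to 10.9 CPM in control. SDHAF4 had 7.42, 10.9 and 16.4 CPM there, against 6.61 to 9.71 CPM in control, so its groups overlapped. Among the other enzymes, IREB2, an iron regulatory protein related to ACO1, fell with lactate (-0.39). In these bulk libraries less RNA per cell and fewer cells of a kind cannot be told apart.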

How the data were processed

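Poly(A) RNA of 16 DU145 libraries was sequenced as single-end reads of 75 bp from 800 ng of RNA with a directional kit, per the labels' protocols. The deposited table holds unnormalized counts for 64792 Ensembl genes, with a column for each library. The submitters' processing notes name STAR 2.6.1c, DESeq, GRCh38.p12 and hg38. Neither the counter nor its handling of strand nor the annotation version is given in the sources used here, so counts of overlapping and antisense genes and of near-identical copies (GLUD1, SDHA) are uncertain. Symbols and coordinates came from GENCODE 29 on GRCh38, and promoter windows from RefSeq.

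edgeR 4.0.16 (R 4.3.3) kept 14690 genes by filterByExpr (minimum count 10, minimum total 15), which took 99.82% or more of each library's counts. Group means were fitted in a quasi-likelihood model over all 16 libraries with TMM scaling (12 residual degrees of freedom, common biological coefficient of variation 0.183). A gene passed at a Benjamini-Hochberg adjusted p under 0.05 over all genes, two-sided. The test was checked on simulated counts.

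The members, the lists and the tests were chosen with earlier results of these data known. Values of every library are given for members that passed in at least one comparison and for the 4 smallest p of each. Other genes come from the 4 lists, up to 4 per list that passed, plus HEXIM1 and marker genes. Some genes that the lists count are not reported here by name. No 2 libraries held identical values, and libraries of a group correlated at 0.941 to 0.995 across genes. Alternatives were RLE factors, total counts, other filters, a replicate block, DESeq2 1.42.0, limma-voom (limma 3.58.1), GC and exon length corrections (lowess span 0.3), separate fits and left-out libraries. The set without control replicate 2, I-BET762 replicate 2 and lactate replicate 1 was chosen after seeing the data.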

Additional observations from a re-analysis of the deposited data

Results flagged for a closer look

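Within each group of 4 libraries, a library was singled out where its gap to the nearest other library exceeded, as a share of the group's range, Dixon's 95% critical value for 4 values. This was done for 116 groups of values (29 enzymes in 4 groups), and 8 met it; chance alone gives about 1 in 20 groups.

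In the library labelled control replicate 2, OGDH was at 200.1 CPM, the highest of its group, and at 133.8 CPM in the library labelled I-BET762 replicate 2, the lowest of its group. DLST was highest in the library labelled control replicate 2, at 164.6 CPM. The library labelled I-BET762 replicate 2 was also lowest for CS, at 212.2 CPM, and for DLD, at 125.9 CPM. These are the libraries whose HEXIM1 levels go against their labels, and the part of the labels in these values was not tested. Among lactate libraries, DLD was lowest in replicate 1 at 101.6 CPM, SUCLG2 lowest in replicate 2 at 42.48 CPM and IDH3G highest in replicate 4 at 44.36 CPM.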

How the results depend on the processing

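Of the 15 member calls in the report, 3 held under every alternative: IDH2 with lactate and with both treatments against control, and OGDHL with both treatments against control. Among these calls, values reversed for IDH3G alone: with GC correction -0.0335 (lactate) and -0.0674 (both treatments) against control, and with GC and exon length correction -0.133 and -0.0833. Over all members, comparisons and alternatives 3538 values kept their side of the threshold, 83 no longer passed, 58 newly passed and 4 reversed. Of the 3538, 253 changed sign, and none of the 253 had passed. The causes were not tested.

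The count of members that changed with lactate, 7, was 4 with total counts alone, 11 with DESeq2, 1 with the groups fitted alone, 4 when control replicate 2 and I-BET762 replicate 2 were both left out, and 2 to 13 with 1 library left out. For I-BET762 against control the count of 0 became 1 with no filter, 1 with the replicate block, 2 with DESeq2, 1 with the groups fitted alone and 3 without those 2 libraries and lactate replicate 1, and was 0 to 0 with 1 library left out. For both treatments against I-BET762 the count of 2 became 4 with DESeq2, 4 with GC and exon length correction, 6 with the groups fitted alone and 0 without the 2 libraries, and was 0 to 2 with 1 left out. For both treatments against control the count of 6 became 2 with GC correction and 9 without the 3 libraries, and was 3 to 7 with 1 left out. Both treatments against lactate and the interaction gave 0 members under every alternative run.

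Counts over all genes moved by more than 1.5 times as follows. For lactate, 3486 genes became 1973 with GC correction, 2242 with GC and length correction, 889 fitted alone, 1839 without control replicate 3 and 2102 without lactate replicate 4. For I-BET762, 65 became 0 with total counts, limma-voom or either correction, 492 with no filter, 133 at a mean of at least 5 CPM, 206 with the block, 542 with DESeq2, 496 fitted alone, 10 without the 2 libraries, 981 without the 3, 277 without control replicate 4, 105 without I-BET762 replicate 4 and 0 without any other single library. For both treatments against I-BET762, 720 became 1250 with DESeq2, 1126 with GC and length correction, 2535 fitted alone, 469 without the 2 libraries, 1469 without the 3 and 285 to 435 without replicate 2, 3 or 4 of either group. For both treatments against lactate, 0 became 197 with no filter, 103 with DESeq2, 2 fitted alone, 60 without the 2 libraries and 123 without the 3. For both treatments against control, 3045 became 1614 with GC correction, 2027 with GC and length correction, 4709 fitted alone, 4832 without the 3 libraries, 1704 without control replicate 3, and 1945 and 1785 without replicate 2 and 4 of both treatments. The interaction's 0 became 3 with no filter.

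Replicate numbers are shared between groups, and the labels give no shared culture or day. Deviations of same-numbered libraries correlated at -0.26 to 0.42, with 16 of 24 pairs over 0.1, and 12 of 24 correlated best with their own number, so not every pair passed 0.1 and the numbers were not taken as pairs; whether they mark a shared batch was not tested. With replicate number as a block, 8, 1, 2, 0, 6 and 0 members passed for lactate, I-BET762, both against I-BET762, both against lactate, both against control and the interaction. In the same order, 4244, 206, 973, 0, 3549 and 0 of all 14690 genes passed. The 6 members with both against control were 5 higher and 1 lower: OGDH no longer passed (0.62, adjusted p = 0.0534) and GLUD1 did (-0.27, adjusted p = 0.0351). GPT2 with lactate (-0.38, adjusted p = 0.0497) and D2HGDH with I-BET762 (0.91, adjusted p = 0.0492) also newly passed. Depth limits OGDHL most, at 48 to 202 counts a library.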
